A study of Mus musculus with 4 samples.

Results

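Opposite-strand transcripts are RNAs named after the gene they face, with the letters os and sometimes a number added to its symbol, as in Uckl1os for Uckl1. All rows of the count table whose symbol was another symbol of the table plus os were taken, and those whose counts over the 4 libraries summed to 20 or more were kept. That left 78 of 305 such rows, out of 55401 genes in the table, and each was set beside its sense partner. Because 2 partners, Tbx3 and Lrrc75a, faced 2 transcripts each, there were 76 partners. The members were chosen by their summed counts alone, so those sums are no result: 163 rows had no count, 64 had 1 to 19 counts, the row just inside the rule had 20 counts and the row just outside it had 19. The set was also put forward with the response of Uckl1os known, so the values of that transcript are a description.

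Newly made RNA of 129/Ola mouse embryonic stem cells was tagged with 4-thiouridine (4sU), a uridine analogue taken up during transcription, then purified and sequenced. Both groups were SNRNP70AID cells, in which the SNRNP70 (U1-70K) subunit of the U1 small nuclear ribonucleoprotein (U1 snRNP) can be degraded on addition of auxin. The groups were cells given the auxin IAA for 5 h (2 libraries) and cells at 0 h without it (2 libraries), and the labels call the genotype of the 0 h cells WT although their titles give the degron line. The design text describes the 2 replicates as independent, and the number of clones behind the line was not given in the sources used here.

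Antisense transcription can start at a promoter shared with the sense gene and run away from it, start inside the sense gene, or overlap it from the far end. U1 snRNP recognises 5′ splice sites and, by binding nascent RNA, restrains cleavage and polyadenylation at early poly(A) signals. Upstream antisense transcripts of mammalian promoters are known to be poor in U1 sites and rich in such signals, and many are ended early and destroyed by the nuclear exosome. Some RNAs named os are nevertheless stable noncoding RNAs, and others encode small proteins.

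Library totals were 15645894 and 10349277 in the 5 h libraries and 17752887 and 7174772 in the 0 h libraries. Levels are CPM, which scale each library to the same total and were normalised with edgeR's TMM factors, and 3 counts, taken as the detection floor of a library, were 0.207 and 0.324 CPM at 5 h and 0.154 and 0.382 CPM at 0 h. These floors cover counting error only. The degron acts on the protein, so Snrnp70 RNA does not check the labels: it was 451 and 475 CPM at 5 h, against 249 and 243 CPM at 0 h. Every one of 10 embryonic stem cell markers was detected, and they summed to 4592 and 4510 CPM at 5 h and to 4497 and 4270 CPM at 0 h. Among them 4 rose and 3 fell. The 8 fibroblast feeder markers summed to 15.1 and 12.5 CPM at 5 h and to 11.4 and 10.6 CPM at 0 h, with Lum, Dcn and Col3a1 at 0 in all 4 libraries. The 7 markers of differentiated cells summed to 17.0 and 20.4 CPM at 5 h and to 15.9 and 11.2 CPM at 0 h. Only 3 of the 8 feeder and 5 of the 7 differentiation markers had enough counts to be tested, and none of those passed. Sox17, an endoderm gene among those not tested, had 0.483 and 0.757 CPM at 5 h and no count at 0 h. The part of other cells in the results was not tested.

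Of the 78 transcripts, 62 matched a RefSeq gene record of the GRCm38.p6 assembly, which corresponds to the mm10 build of the submitters' notes. RefSeq classed 50 as long noncoding RNAs (lncRNAs) and 10 as protein coding. All 76 partners matched. The gene spans of a pair overlapped in 38 of the 62 pairs with positions, and 17 of the other 24 pairs lay less than 1 kb apart. Where both strands were known, in 37 pairs, they were opposite in all 37. In 8 of these the starts faced away from each other across a gap of 25 to 216 bases, which is the divergent arrangement. In 12 pairs the spans overlapped at their starts, in 3 at their ends, and in 10 the transcript lay within its partner or the reverse, while 2 pairs had facing ends and 2 lay farther apart. The sources used here do not say whether the counting used strand, and an overlapping transcript and partner therefore cannot be told apart by their reads.

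RefSeq promoter windows of 300 bases, 250 before the start and 50 from it, were at hand for 51 of the transcripts and 56 partners. A gene with more than 1 listed window was given its highest CG count, and a motif was scored if any of its windows held it. The transcripts had a median of 13 CG dinucleotides and the partners 21.5, against 8 over all 27025 genes with windows. Those genes were taken whether or not they had counts in these cells, so this background is not on a like footing. CG density differed by arrangement: the 8 divergent transcripts had a median of 31 per window, the 12 with overlapping starts 19, and the 10 contained ones 5.5. The motif GTAAGT is the core of a strong 5′ splice site. It stood on the gene's own strand in 1 transcript (1.96%) and 4 partners (7.14%), against 4.88% of all genes. On either strand it stood in 2 transcripts (3.92%) and 7 partners (12.5%), against 8.73% of all genes. These cases are too few to compare the shares. The poly(A) signal AATAAA stood on the gene's own strand in 9.8% of the transcripts, in 10.71% of the partners and in 12.83% of all genes. Counted on either strand the shares were 23.53%, 16.07% and 22.01%, in another order. These windows reach only 50 bases into the transcript, and a signal in the 250 bases before the start is not part of it. They say nothing of sites further along. The 5 windows below, on the strand of the transcript with every CG in capitals, show starts rich and poor in CG among transcripts whose values follow: Ccpg1os (33 CG) and Etaa1os (25 CG) are divergent, and Man2c1os (13 CG) and Uckl1os (3 CG, the first of 2 listed windows) overlap the starts of their partners. Uckl1os lies far below the median of 19 of its arrangement. Hopxos (1 CG) is contained in its partner. The windows lie at chr9:72985327-72985626 (minus strand), chr11:17953720-17954019 (plus), chr9:57131241-57131540 (minus), chr2:181578230-181578529 (plus) and chr5:77098580-77098879 (plus), in that order.
Ccpg1os: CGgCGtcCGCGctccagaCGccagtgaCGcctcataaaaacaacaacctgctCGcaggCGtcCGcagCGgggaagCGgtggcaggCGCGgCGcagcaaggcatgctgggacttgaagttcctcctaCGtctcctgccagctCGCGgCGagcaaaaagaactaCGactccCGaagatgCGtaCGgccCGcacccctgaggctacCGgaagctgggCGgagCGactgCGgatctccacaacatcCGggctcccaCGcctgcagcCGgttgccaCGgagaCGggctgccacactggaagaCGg
Etaa1os: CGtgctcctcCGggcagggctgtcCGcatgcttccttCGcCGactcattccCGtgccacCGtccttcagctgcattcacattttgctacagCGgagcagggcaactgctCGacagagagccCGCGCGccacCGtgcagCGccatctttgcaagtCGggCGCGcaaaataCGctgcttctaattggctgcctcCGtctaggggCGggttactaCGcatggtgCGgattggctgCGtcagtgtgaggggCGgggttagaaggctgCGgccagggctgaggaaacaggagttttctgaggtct
Man2c1os: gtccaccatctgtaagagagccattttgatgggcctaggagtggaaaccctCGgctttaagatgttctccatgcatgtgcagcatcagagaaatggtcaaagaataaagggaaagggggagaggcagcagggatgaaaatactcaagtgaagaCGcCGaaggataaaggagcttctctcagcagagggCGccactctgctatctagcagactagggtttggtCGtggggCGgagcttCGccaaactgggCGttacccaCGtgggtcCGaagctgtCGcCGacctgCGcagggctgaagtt
Uckl1os: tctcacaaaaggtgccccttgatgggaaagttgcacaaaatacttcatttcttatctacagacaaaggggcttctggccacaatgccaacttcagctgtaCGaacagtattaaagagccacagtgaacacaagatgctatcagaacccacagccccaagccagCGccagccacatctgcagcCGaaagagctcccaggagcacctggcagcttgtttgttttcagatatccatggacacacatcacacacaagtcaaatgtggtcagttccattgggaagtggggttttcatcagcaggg
Hopxos: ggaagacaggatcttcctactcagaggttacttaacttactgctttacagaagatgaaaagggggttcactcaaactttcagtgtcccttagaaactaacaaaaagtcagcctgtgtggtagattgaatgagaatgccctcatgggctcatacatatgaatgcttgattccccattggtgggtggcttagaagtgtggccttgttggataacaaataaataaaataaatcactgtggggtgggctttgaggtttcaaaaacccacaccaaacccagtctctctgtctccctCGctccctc
The Ccpg1os window shares 227 bases with the window of Ccpg1 itself, read on the other strand.

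**Figure D1:**
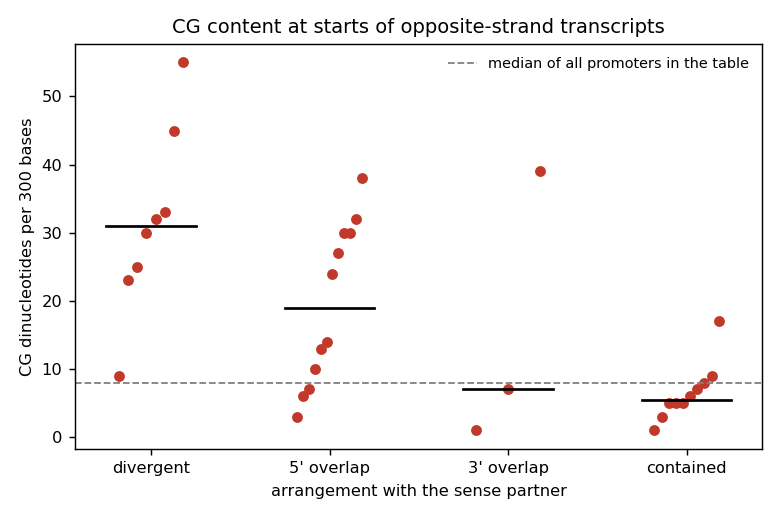
CG dinucleotides per 300-base promoter window (vertical axis) for the 33 opposite-strand transcripts in 4 arrangements (horizontal axis). Each point is a transcript at its window with the most CG, and the black bar is the median of its arrangement. The dashed line is the median of 8 over all genes with windows. Divergent transcripts had a median of 31 and contained ones of 5.5.

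The transcripts were low in the labelled RNA. Together they held 0.0562% and 0.0583% of the counts at 5 h, against 0.0657% and 0.0615% at 0 h. Their counts over the 4 libraries summed to 20 to 49 in 21 cases, to 50 to 99 in 19 and to 100 or more in 38, and 22 had no count in at least 1 library. A filter on low counts passed 63 of the 78, of which 5 passed through their 5 h level only and 2 through their 0 h level only, and 5 of those 7 were called. A transcript that passed only where it is high had to differ, so the calls of Uckl1os, Nckap5los, Lrrc75aos1, Etaa1os and Hopxos carry less than the others. Among the 63 the median level was 2.77 CPM, against 13.9 CPM over all 17344 genes tested, in values not corrected for transcript length.

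After 5 h of auxin opposite-strand transcripts went in both directions. Of the 63 tested, 13 rose (20.6%), 11 fell (17.5%) and 39 did not pass, by edgeR's quasi-likelihood test with a Benjamini-Hochberg adjusted p under 0.05 over all genes tested. Over all 17344 genes 22.0% rose and 21.2% fell, so both shares of the transcripts lay near the background. The transcripts' median log2 fold change was 0.19, also with those at 0 in a group set to their bound, against -0.02 over all genes. The sign of this median depended on the fit. It was 0.20 by DESeq2 and 0.14 with the replicate block, but -0.26 by limma-voom, each over 63 transcripts. Counts divided by 4 gave -0.33, but over only the 34 transcripts that then passed the filter. The transcripts' middle values ran from -0.75 to 1.04, against -0.64 to 0.55 over all genes. Their median level was 2.77 CPM, against 13.9 CPM over all genes, and estimates from few counts spread more. No genes of like level were compared, so the wider range is not read as a trait of the transcripts. Of the called ones, 10 rose and 8 fell by at least 2-fold. With all 78 fitted and no filter, 17 rose (21.8%) and 11 fell (14.1%). In that fit 14.9% of all 27319 genes rose and 13.9% fell. Those genes took in every row with a count, also rows below the members' minimum, so these shares are not on a like footing. Among the 76 partners 72 were tested, of which 21 rose (29.2%) and 14 fell (19.4%), with a median of 0.22. Every change is relative to the other RNA of the library, and the split moves with the scale: with library totals 10 transcripts rose and 13 fell, and with scaling to the mitochondrially encoded genes 5 rose and 22 fell. The partners then split 12 to 24 and 1 to 36, and all genes 2297 to 5257 and 396 to 8872. Library totals moved the median of all genes to -0.28, and mitochondrial scaling moved it to -0.86. Fewer cells making an RNA and less of it per cell cannot be told apart in such bulk libraries.

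**Figure D2:**
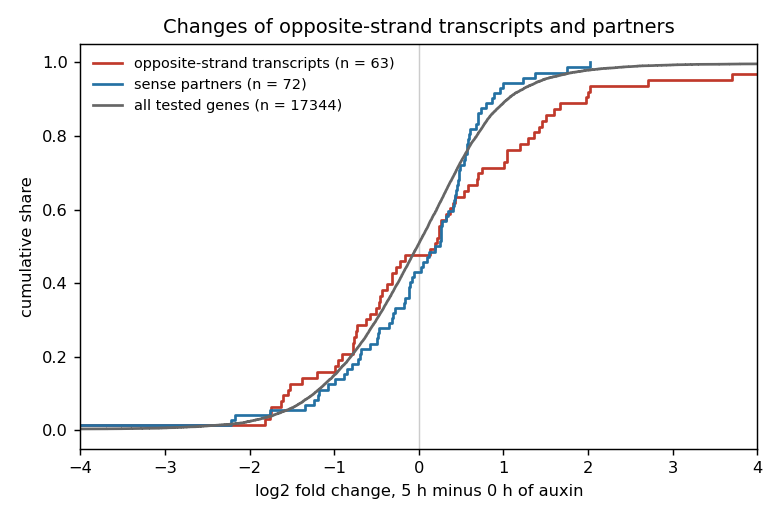
Cumulative share of genes (vertical axis) against the log2 fold change, 5 h minus 0 h (horizontal axis, drawn from -4 to 4), for 63 opposite-strand transcripts, 72 sense partners and all 17344 tested genes. The lines of the transcripts and of all genes cross near 0, with medians of 0.19 and -0.02. The transcripts, whose median level was lower than that of all genes, reach further at the upper end.

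Both libraries of the one time lay beyond both of the other in 43 of the 63 transcripts, 22 higher and 21 lower at 5 h, where 73.5% of all tested genes were so separated (36.0% higher and 37.5% lower). By RefSeq span, the 25 tested transcripts under 5 kb split 4 higher to 4 lower with a median of 0.27, whereas all tested genes of that span had a median of 0.49, with 32.2% higher and 4.68% lower. The 17 of 5 to 20 kb split 5 to 3 (median -0.50), where all genes of that span had a median of -0.0034, with 24.8% higher and 20.2% lower. The 9 over 20 kb split 2 to 2 (median -0.22), where all genes of that span had a median of -0.25, with 16.0% higher and 32.3% lower. Of the 41 tested lncRNAs among them, 9 rose and 7 fell, against 13.1% and 17.1% of the 808 lncRNAs tested in all.

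Noncoding transcripts above 10 CPM that rose included 2 overlapping records of small nucleolar RNAs (snoRNAs) and a transcript meeting the end of its partner. Epb41l4aos, an lncRNA whose human counterpart hosts a snoRNA, had 45.2 and 44.7 CPM at 5 h, against 13.5 and 15.0 CPM at 0 h. It rose by 1.67 ± 0.15 on the log2 scale (SE of the edgeR fit, adjusted p = 3.45e-05). Gm23639, a snoRNA gene within its span, had 19.5 and 14.7 CPM at 5 h, against 2.01 and 1.91 CPM at 0 h. The counts of host and snoRNA cannot be told apart where they overlap. Rab26os, which lies 309 bases from the vesicle GTPase gene Rab26 and also overlaps a snoRNA record, had 29.8 and 30.0 CPM at 5 h and 11.4 and 9.54 CPM at 0 h (log2 1.50 ± 0.18, edgeR adjusted p = 0.000135). Its partner Rab26 did not pass (5.72 ± 1.97 CPM at 5 h, 4.35 ± 0.396 CPM at 0 h, SD, n = 2 each). Rab10os, on chromosome 12 from 3235791 to 3250374, overlaps the end of Rab10, a GTPase of membrane trafficking, by 2947 bases. It had 59.0 and 59.2 CPM at 5 h, against 23.9 and 22.0 CPM at 0 h (log2 1.36 ± 0.13, edgeR adjusted p = 4.62e-05), and was not called with mitochondrial scaling (0.52, adjusted p = 0.0565). Rab10 itself stood at 87.6 and 92.3 CPM at 5 h and at 102 and 90.7 CPM at 0 h and did not pass.

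Lrrc75a faced 2 transcripts, and both rose with TMM scaling. The human counterpart of this locus, LRRC75A-AS1, is a snoRNA host gene. Lrrc75aos2 had 37.2 and 33.3 CPM at 5 h, against 17.9 and 16.3 CPM at 0 h (log2 1.04 ± 0.16, edgeR adjusted p = 0.000527). With mitochondrial scaling its value was 0.21 and the call ended (adjusted p = 0.496). Lrrc75aos1 had 5.11 and 3.78 CPM at 5 h, against 0.515 and 0 CPM at 0 h (log2 3.71 ± 0.74, edgeR adjusted p = 0.00233). Its size rests on the 0 h libraries: the log2 value was 3.10 without 0 h replicate 2, and without 0 h replicate 1 no 0 h count was left and no fold is given. Lrrc75a did not pass, with 6.91 and 5.51 CPM at 5 h and 4.74 and 5.09 CPM at 0 h.

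A few transcripts were seen at only 1 time. Uckl1os, on chromosome 2 from 181578480 to 181585115, overlaps the start of the uridine-cytidine kinase-like gene Uckl1 by 3548 bases and also spans part of Zfp512b. It had 2.56 and 2.59 CPM at 5 h and no count in either 0 h library, which makes it at least 9.60-fold higher against the mean 0 h floor of 0.268 CPM (edgeR adjusted p = 0.00113, given as a description). Uckl1 had 1.31 and 2.81 CPM at 5 h, against 3.81 and 4.20 CPM at 0 h, and did not pass (adjusted p = 0.123). Without 5 h replicate 2 it did, with a log2 value of -1.58 (adjusted p = 0.0370). Nckap5los, contained in the microtubule-binding protein gene Nckap5l, had 1.66 and 1.73 CPM at 5 h and no count at 0 h, at least 6.32-fold higher (edgeR adjusted p = 0.00453). Hopxos, contained in the homeodomain gene Hopx, had no count at 5 h, against 1.24 and 1.27 CPM at 0 h, and was at least 4.72-fold lower (edgeR adjusted p = 0.0104). Hopx did not pass, with 3.38 and 5.30 CPM at 5 h and 3.65 and 3.56 CPM at 0 h. The row of Hopxos shared all 4 counts with that of Gm26679, for which no reason was found.

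**Figure D3:**
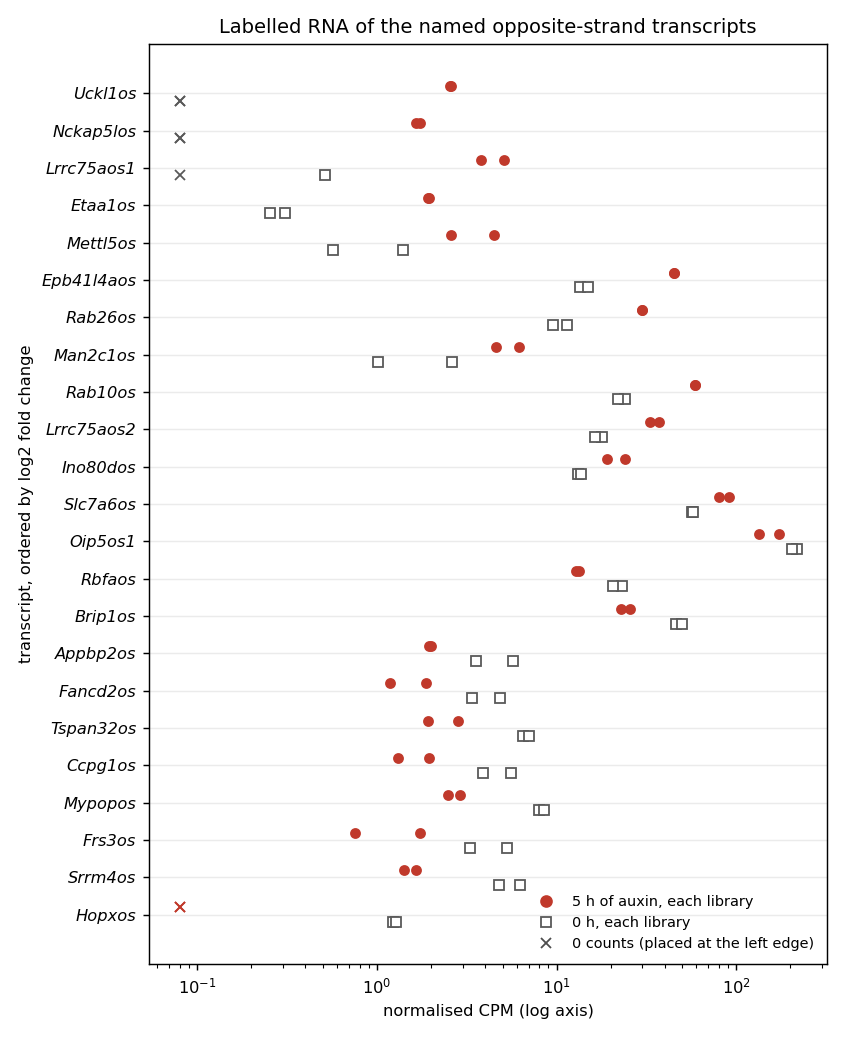
Normalised CPM (horizontal log axis) of the 23 named opposite-strand transcripts in each library, ordered by log2 fold change. Red points are the 2 libraries at 5 h and open squares the 2 at 0 h; a cross at the left edge marks 0 counts. The libraries of the 2 times do not overlap for any of them. This was a condition for choosing those of highest and lowest change, so it is no result. The highest CPM is that of Oip5os1, at 133 to 217 CPM.

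The transcripts that fell ranged from the one with the highest CPM of the set to some near the floor. Oip5os1, the lncRNA known as Cyrano, which directs the decay of the microRNA miR-7, had 133 and 173 CPM at 5 h, against 217 and 203 CPM at 0 h (log2 -0.46 ± 0.12, edgeR adjusted p = 0.0126). It lies 8785 bases from Oip5, a gene of centromere assembly. Oip5 had 8.49 and 10.4 CPM at 5 h, against 22.3 and 20.5 CPM at 0 h, and fell further (log2 -1.20 ± 0.21). Brip1os, which spans 103 kb of chromosome 11 and lies 144 bases from the DNA helicase gene Brip1, had 22.8 and 25.6 CPM at 5 h, against 46.3 and 49.9 CPM at 0 h (log2 -0.99 ± 0.14, edgeR adjusted p = 0.000356). Its span also takes in Ints2 and Med13, so part of its counts may be shared. Rbfaos, which overlaps the mitochondrial ribosome-binding factor gene Rbfa by 1306 bases and also the pseudogene Gm46629, so that their reads cannot be told apart, had 13.4 and 12.9 CPM at 5 h, against 23.2 and 20.5 CPM at 0 h (log2 -0.74 ± 0.19, edgeR adjusted p = 0.00884). Without 0 h replicate 1 it did not pass (log2 -0.63, adjusted p = 0.0823), and Rbfa passed in no direction (22.5 ± 1.13 CPM at 5 h, 25.4 ± 3.64 CPM at 0 h).

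At a few CPM, Srrm4os overlaps Srrm4, a splicing factor of neurons, by 26220 bases. It had 1.66 and 1.41 CPM at 5 h, against 4.79 and 6.23 CPM at 0 h (log2 -1.82 ± 0.41, edgeR adjusted p = 0.00494), while Srrm4 stayed between 2.38 and 4.83 CPM with no call. Mypopos, named for the Myb-related repressor gene Mypop, had 2.90 and 2.49 CPM at 5 h, against 7.98 and 8.53 CPM at 0 h (log2 -1.60 ± 0.32, edgeR adjusted p = 0.00233). Mypop did not pass (3.79 ± 0.310 CPM at 5 h, 5.28 ± 0.266 CPM at 0 h). Both transcripts were chosen among called ones of lowest change whose libraries did not overlap, so the separation of their times is no result.

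The 10 protein-coding members gave 8 tests, of which 2 rose (25%), 2 fell (25%) and 4 did not pass, near the 22.8% and 25.3% of all 12948 protein-coding genes tested. Slc7a6os, whose human counterpart helps import RNA polymerase II into the nucleus, had 80.6 and 91.3 CPM at 5 h, against 56.9 and 57.6 CPM at 0 h. It rose by 0.58 ± 0.12 on the log2 scale (edgeR adjusted p = 0.00230), a direction that turned to -0.27 with mitochondrial scaling. Its partner Slc7a6, an amino acid transporter gene whose end faces it across 1723 bases, did not pass (56.7 ± 5.70 CPM at 5 h, 63.8 ± 6.08 CPM at 0 h). Trpc5os had 12.2 and 17.4 CPM at 5 h, against 9.73 and 8.14 CPM at 0 h (log2 0.70 ± 0.25, edgeR adjusted p = 0.0448). The channel gene Trpc5 that contains it had no count in any library, and Trpc5os is described here because of that, chosen after its values were seen. By DESeq2 (adjusted p = 0.102), by limma-voom (adjusted p = 0.0503) and with library totals (adjusted p = 0.191) it was not called. Its call was lost without 0 h replicate 2 (log2 0.59, adjusted p = 0.186) and without 5 h replicate 2 (log2 0.45, adjusted p = 0.244), and its sign turned with mitochondrial scaling (-0.16). Wdr83os, whose human counterpart is a chaperone of membrane proteins in the endoplasmic reticulum, had 6.15 and 5.84 CPM at 5 h and 5.51 and 4.96 CPM at 0 h. Pigbos1, known in human cells for a microprotein of the outer mitochondrial membrane, had 7.94 and 6.48 CPM at 5 h and 7.46 and 5.60 CPM at 0 h, and neither passed.

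The protein-coding members that fell were Fancd2os and Ccpg1os. Fancd2os overlaps by 260 bases the Fanconi anaemia gene Fancd2, which acts at DNA crosslinks. It had 1.86 and 1.19 CPM at 5 h, against 3.40 and 4.84 CPM at 0 h (log2 -1.38 ± 0.47, edgeR adjusted p = 0.0363). Its call was lost without 0 h replicate 2 (-1.13, adjusted p = 0.195) and without 5 h replicate 2 (-1.10, adjusted p = 0.128). Nor was it called by DESeq2 (adjusted p = 0.111) or limma-voom (adjusted p = 0.0518). Fancd2, at 40.8 and 42.8 CPM at 5 h against 141 and 142 CPM at 0 h, fell too. Ccpg1os is described with the divergent pairs.

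Divergent pairs, whose 2 starts share a promoter region, gave 1 transcript that rose, 2 that fell and 5 that did not pass, while 6 of their 8 partners rose and none fell. Over all genes 22.0% rose and 21.2% fell, and with 8 pairs no test of this count was made. Only pairs with both strands listed could be classed as divergent. Among the partners under 1 kb away in pairs lacking a strand, Epb41l4a, Ino80d and Brip1 fell, and Tbx3, Fzd10 and Cdipt rose. Arhgap33, Rab26 and Wt1 in such pairs did not pass. Etaa1os is paired with Etaa1, an activator of the checkpoint kinase ATR. Etaa1os had 1.93 and 1.95 CPM at 5 h, against 0.309 and 0.254 CPM at 0 h (log2 2.71 ± 0.82, edgeR adjusted p = 0.0214). Mitochondrial scaling (1.88, adjusted p = 0.0903) and leaving out any of the 4 libraries ended its call, with left-out values of 2.62 to 2.88 and adjusted p of 0.0661 to 0.106. Etaa1 had 235 and 251 CPM at 5 h, against 123 and 127 CPM at 0 h, and rose by 0.96 ± 0.09, but with mitochondrial scaling was not called (0.11, adjusted p = 0.602). Ccpg1os, 25 bases from Ccpg1, a receptor for autophagy of the endoplasmic reticulum, had 1.31 and 1.95 CPM at 5 h, against 3.91 and 5.60 CPM at 0 h (log2 -1.54 ± 0.45, edgeR adjusted p = 0.0185). Ccpg1 had 41.3 and 39.2 CPM at 5 h, against 26.7 and 32.3 CPM at 0 h (log2 0.46 ± 0.15, edgeR adjusted p = 0.0298), and its sign turned with mitochondrial scaling (-0.39). Without 0 h replicate 2 the value of Ccpg1os was -1.28 (adjusted p = 0.121), and without 5 h replicate 1 it was -1.26 (adjusted p = 0.0582), neither called. DESeq2 called neither Ccpg1os (adjusted p = 0.0562) nor Ccpg1 (adjusted p = 0.0732), and Ccpg1 was not called with library totals (0.19, adjusted p = 0.338). Ccpg1 was likewise lost without 0 h replicate 1 (0.33, adjusted p = 0.271) and without 5 h replicate 1 (0.43, adjusted p = 0.0549).

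Appbp2os, 45 bases from Appbp2, a substrate receptor of a ubiquitin ligase, had 2.0 and 1.95 CPM at 5 h, against 3.55 and 5.73 CPM at 0 h (log2 -1.20 ± 0.44, edgeR adjusted p = 0.0467). Of the fits without 1 library, it kept that call only without 0 h replicate 1: the other values were -0.84 without 0 h replicate 2 (adjusted p = 0.306), -1.21 without 5 h replicate 1 (adjusted p = 0.0740) and -1.16 without 5 h replicate 2 (adjusted p = 0.100). It was not called by DESeq2 (adjusted p = 0.138) or limma-voom (adjusted p = 0.0659). Appbp2 did not pass, at 241 and 245 CPM at 5 h and 224 and 224 CPM at 0 h. The divergent partners Stam (0.55 ± 0.11), Arl4a (0.57 ± 0.11), Map2k3 (0.61 ± 0.18) and Wdr83 (0.70 ± 0.19) rose with TMM scaling, and all 4 turned negative with mitochondrial scaling. Map2k3, a kinase of the p38 pathway, was not called without 0 h replicate 2 (0.52, adjusted p = 0.101) and also without 5 h replicate 1 (0.29, adjusted p = 0.120). Wdr83 was not called without 0 h replicate 1 (0.71, adjusted p = 0.0501) and also without 0 h replicate 2 (0.70, adjusted p = 0.0620). The transcripts facing those 4 partners did not pass: Map2k3os had 7.60 and 6.81 CPM at 5 h and 11.1 and 10.4 CPM at 0 h, and Stamos and Arl4aos averaged 1.34 and 0.728 CPM at 5 h and 1.65 and 0.463 CPM at 0 h. B9d1os, beside the ciliary gene B9d1, had 1.31 and 1.08 CPM at 5 h, against 0.154 and 0.509 CPM at 0 h, without a call (log2 2.0 ± 1.04).

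The ratio of a transcript to its partner was taken within a library, where the scale cancels except through an added prior. That prior was 2 counts, adjusted to library size, and it shrinks the log2 ratios of low counts. Of 60 pairs with both genes tested, the ratios of the 2 times did not overlap in 40 (66.7%), 21 higher and 19 lower at 5 h. The same was so for 69.4% of 14987 pairs of neighbouring tested genes. The median change of the ratio was 0.28 on the log2 scale. With TMM scaling, transcript and partner had log2 fold changes of the same sign in 30 of the 60 pairs (50%). Among neighbouring pairs 52.5% did, so the share was not above that of neighbours. Across these 60 pairs, which share the 4 libraries, Spearman's rho was -0.0075 and Pearson's r was -0.03.

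**Figure D4:**
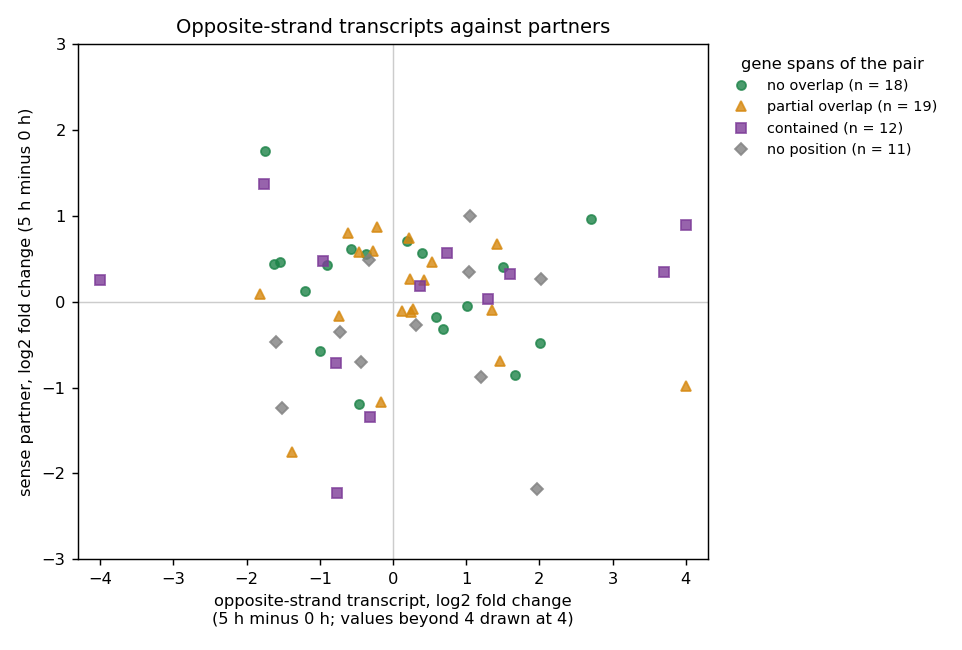
Log2 fold change, 5 h minus 0 h, of each opposite-strand transcript (horizontal axis) and its sense partner (vertical axis) in 60 pairs. Colours and shapes give how the gene spans lie, and transcripts beyond 4 in either direction are drawn at 4; the points fill all 4 quadrants, with the same sign in 30 pairs.

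Both genes were called in 12 pairs, 6 in the same direction and 6 in opposite directions (50%, against 45.7% of 3129 neighbouring pairs with both called). DESeq2 called only 1 of the genes, or neither, in 3 of the 6 opposite pairs, those of Man2c1os, Ccpg1os and Mettl5os. Both rose in the pairs of Etaa1os and Nckap5los, and both fell in the pairs of Tspan32os, Fancd2os, Brip1os and Oip5os1. Etaa1os and Nckap5los passed the count filter through their 5 h level only, so their pairs carry less in this split. Nckap5l had 55.7 and 44.7 CPM at 5 h, against 27.8 and 26.2 CPM at 0 h, and was not called with mitochondrial scaling (0.06, adjusted p = 0.838). Tspan32os, named for the tetraspanin gene Tspan32, had 1.93 and 2.81 CPM at 5 h, against 6.49 and 7.0 CPM at 0 h (log2 -1.52 ± 0.36, edgeR adjusted p = 0.00648), and Tspan32 changed by -1.24 ± 0.28. Brip1 had 22.9 and 28.7 CPM at 5 h, against 31.4 and 46.2 CPM at 0 h (log2 -0.58 ± 0.20, edgeR adjusted p = 0.0395). It was not called by DESeq2 (adjusted p = 0.0601). It was lost, too, without 0 h replicate 2 (-0.29, adjusted p = 0.392) and also without 5 h replicate 1 (-0.41, adjusted p = 0.138).

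In 4 of the opposite pairs the transcript rose and its partner fell. Epb41l4a, a gene of the protein 4.1 family, had 70.6 and 71.7 CPM at 5 h, against 128 and 129 CPM at 0 h, and changed by -0.85 ± 0.10 on the log2 scale beside the rise of Epb41l4aos. Mettl5os had 4.49 and 2.59 CPM at 5 h, against 0.566 and 1.40 CPM at 0 h (log2 1.97 ± 0.61, edgeR adjusted p = 0.0228). Mettl5, which methylates an adenosine of 18S ribosomal RNA, had 3.59 and 2.59 CPM at 5 h, against 15.1 and 13.2 CPM at 0 h (log2 -2.18 ± 0.28, edgeR adjusted p = 0.000192). Without 0 h replicate 1 or 5 h replicate 1 Mettl5os was not called (1.36, adjusted p = 0.110, and 1.48, adjusted p = 0.191). It was not called by DESeq2 (adjusted p = 0.0538) or with mitochondrial scaling (1.15, adjusted p = 0.157), and its position was not matched.

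Man2c1os overlaps by 616 bases the start of Man2c1, a cytosolic alpha-mannosidase gene. It had 4.63 and 6.16 CPM at 5 h, against 2.62 and 1.02 CPM at 0 h (log2 1.46 ± 0.47, edgeR adjusted p = 0.0280). Man2c1 had 43.4 and 34.3 CPM at 5 h, against 67.9 and 57.3 CPM at 0 h (log2 -0.69 ± 0.15, edgeR adjusted p = 0.00417). Man2c1os was not called by DESeq2 (adjusted p = 0.0566), with library totals (1.19, adjusted p = 0.0663) or with mitochondrial scaling (0.62, adjusted p = 0.304). The transcript's value was 2.39 without 0 h replicate 1, and its call was lost without 0 h replicate 2 (1.03, adjusted p = 0.135) and without 5 h replicate 2 (1.27, adjusted p = 0.0901). Ino80dos lies 203 bases from Ino80d, a subunit gene of the INO80 chromatin remodeller, and its span takes in Ndufs1. Ino80dos had 19.1 and 24.0 CPM at 5 h, against 13.2 and 13.6 CPM at 0 h (log2 0.68 ± 0.20, edgeR adjusted p = 0.0171), but was not called with library totals (0.41, adjusted p = 0.113), and its sign turned with mitochondrial scaling (-0.17). Ino80d had 430 and 428 CPM at 5 h, against 546 and 522 CPM at 0 h (log2 -0.32 ± 0.08, edgeR adjusted p = 0.0103). Ino80dos was not called without 0 h replicate 1, 0 h replicate 2 or 5 h replicate 2 (0.67, 0.70 and 0.53, adjusted p = 0.0635, 0.0634 and 0.0813), nor was Ino80d without 0 h replicate 1 or 2 (-0.28 and -0.35, adjusted p = 0.172 and 0.0885).

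In the other 2 opposite pairs the transcript fell and the partner rose. One is Ccpg1os with Ccpg1, above. Frs3os lies within Frs3, an adaptor gene of fibroblast growth factor receptors, on chromosome 17 from 47699969 to 47701996. It had 1.73 and 0.757 CPM at 5 h, against 5.30 and 3.31 CPM at 0 h (log2 -1.76 ± 0.51, edgeR adjusted p = 0.0179). Frs3 had 33.9 and 31.2 CPM at 5 h, against 12.8 and 12.3 CPM at 0 h (log2 1.37 ± 0.17, edgeR adjusted p = 0.000142), and was not called with mitochondrial scaling (0.53, adjusted p = 0.0875). The log2 ratio of Frs3os to Frs3 changed by -3.09. The pair was chosen for its opposite calls, and the libraries of the 2 times overlapped for neither gene. Its ratios therefore could not overlap, which is no further result. Frs3os was not called without 0 h replicate 1 (-1.36, adjusted p = 0.156) and also without 5 h replicate 2 (-1.33, adjusted p = 0.0618), and its value was -2.52 without 5 h replicate 1.

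**Figure D5:**
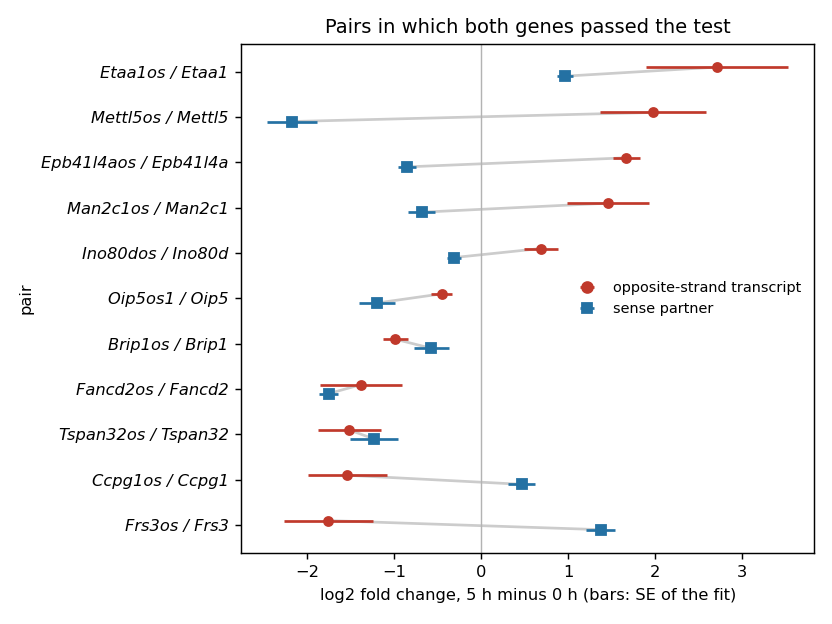
Log2 fold change, 5 h minus 0 h (horizontal axis), of the opposite-strand transcript (red circles) and its sense partner (blue squares) in 11 of the 12 pairs with both genes called; bars are the SE of the edgeR fit. Nckap5los and its partner are not drawn because the transcript had no count at 0 h. The 2 marks lie on opposite sides of 0 in 6 pairs.

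Genes whose products end, hold or degrade antisense RNA changed in both directions themselves. The list held 27 tested genes of the nuclear exosome, its cofactors, the cap-binding complex and the cleavage and polyadenylation machinery. Of these 13 rose (48.1%), 8 fell (29.6%) and 6 did not pass, where 22.0% of all genes rose and 21.2% fell. Their median was 0.30, against -0.02 over all genes. The exosome nuclease gene Dis3 had 598 and 724 CPM at 5 h, against 380 and 396 CPM at 0 h. Dis3 (0.77 ± 0.10) and the exosome-targeting genes Rbm7 (0.74 ± 0.10), Zcchc8 (0.67 ± 0.10) and Mtrex (0.38 ± 0.10) rose with TMM scaling and all 4 turned negative with mitochondrial scaling. Mtrex was not called without 0 h replicate 1 (0.33, adjusted p = 0.115) and also without 0 h replicate 2 (0.43, adjusted p = 0.0551). Pabpn1, which binds poly(A) tails in the nucleus, had 306 and 274 CPM at 5 h, against 140 and 135 CPM at 0 h (log2 1.08 ± 0.10, edgeR adjusted p = 2.88e-05), and was not called with mitochondrial scaling (0.24, adjusted p = 0.274). The cleavage factor genes Cstf2 (-1.26 ± 0.12), Cpsf3 (-0.94 ± 0.15) and Pcf11 (-0.85 ± 0.10) fell, as did Zc3h4 (-0.62 ± 0.09), a factor that restricts noncoding transcription. Exosome subunit genes went both ways. Exosc7 (-0.57 ± 0.14), Exosc8 (-0.52 ± 0.12), Exosc2 (-0.42 ± 0.15) and Exosc5 (-0.35 ± 0.11) fell. Exosc9 (0.45 ± 0.13), Exosc10 (0.44 ± 0.10) and Exosc6 (2.78 ± 0.74, from 0.257 and 0.636 CPM at 0 h) rose, and Exosc1, Exosc3 and Exosc4 did not pass. With mitochondrial scaling none of the 27 rose and 16 fell, and without 0 h replicate 1 the list split 10 to 5.

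Names that end in as in place of os gave 4 rows, of which Hras and Vipas39 are not antisense transcripts. Gnasas1, the antisense transcript of the imprinted Gnas locus, had 23.1 and 30.6 CPM at 5 h, against 54.1 and 46.8 CPM at 0 h (log2 -0.93 ± 0.17, edgeR adjusted p = 0.00124). Znrd1as had 3.66 and 4.11 CPM at 5 h, against 8.13 and 8.78 CPM at 0 h (log2 -1.12 ± 0.30, edgeR adjusted p = 0.0112), and was not called without 0 h replicate 2 (-1.07, adjusted p = 0.0588).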

How the data were processed

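Labelled RNA of 4 libraries was analysed from 1 deposited table of whole-number gene counts. The submitters' processing notes name mm10 and, in no given role, DESeq2 1.42.0, StringTie 2.2.1 and HISAT2 2.2.1. The authors' values were treated as estimated counts, as per the file headers and row names their layout is StringTie's, and in each library fewer genes had the value 2 than had 3 or 4. In such counts 1 fragment can be worth several, so counting error may exceed what the counts imply. They were already whole and were used without rounding changing them.

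Genes passing filterByExpr (17344 of 55401) were fitted in edgeR 4.0.16 under R 4.3.3 with TMM factors and the robust quasi-likelihood test, 5 h minus 0 h, with Benjamini-Hochberg adjustment over all of them and 0.05 as threshold. SEs follow from the fold change and F. Folds against a group at 0 use the mean of its floors of 3 counts per library. Alternatives were DESeq2 1.42.0, limma 3.58.1, other scalings and filters, counts divided by 4, a replicate block and leaving out each library. Same-numbered libraries correlated at 0.0505 in their deviations from the group means, so the numbers were not taken as pairs. Neighbouring genes were taken along the chromosomes of the RefSeq table. Windows of 2 listed starts of Uckl1os existed, and the first was printed.

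The members and lists were chosen with earlier results of these data known. Transcripts named by rule were 10 of highest and 10 of lowest change among called ones whose libraries did not overlap. The 8 of highest CPM, those called opposite to their partner, Uckl1os, and all their partners were named too. Divergent pairs, near partners in pairs lacking a strand, Trpc5os and Pigbos1 were added. Names ending in as and the RNA surveillance genes with values were also added.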

Additional observations from a re-analysis of the deposited data

How the results depend on the processing

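Mitochondrial scaling changed the most. Opposite-strand transcripts then split 5 higher to 22 lower, partners 1 to 36, all tested genes 396 to 8872 and the surveillance list 0 to 16. It reversed Ino80dos (-0.17), Slc7a6os (-0.27), Trpc5os (-0.16), Appbp2 (-0.73), Ccpg1 (-0.39), Wdr83 (-0.14), Arl4a (-0.28), Map2k3 (-0.21), Stam (-0.30), Dis3 (-0.094), Rbm7 (-0.11), Zcchc8 (-0.18) and Mtrex (-0.48). Mitochondrial counts took 6.03% and 7.17% of the libraries at 5 h, against 4.41% and 4.34% at 0 h. With library totals the splits were 12 to 24 for partners, 2297 to 5257 for all genes and 7 to 9 for the surveillance list. Leaving out each library gave 9 to 15 transcripts higher and 8 to 11 lower, 16 to 21 and 10 to 17 partners, 2721 to 3765 and 2609 to 3834 of all genes, and 9 to 13 and 5 to 7 of the surveillance list.

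The replicate block gave 12 transcripts higher and 9 lower, and ended the calls of Appbp2os (adjusted p = 0.0697), Etaa1os (0.0573), Fancd2os (0.0636), Mettl5os (0.0524) and Trpc5os (0.0710). With 2 pairs this does not mark a weaker effect. DESeq2 kept 18 of the 23 named transcripts' calls and ended those of Appbp2os (0.138), Fancd2os (0.111), Man2c1os (0.0566), Ccpg1os (0.0562) and Mettl5os (0.0538). Limma-voom kept 21, without Appbp2os (0.0659) and Fancd2os (0.0518), and library totals 21, without Ino80dos (0.113) and Man2c1os (0.0663). Mitochondrial scaling kept 16, and beside the reversals ended Etaa1os (0.0903), Lrrc75aos2 (0.496), Man2c1os (0.304), Mettl5os (0.157) and Rab10os (0.0565). A minimum of 50 or of 100 summed counts left 57 or 38 transcripts, of which 12 rose and 10 fell, or 10 rose and 10 fell. The cause of these shifts was not tested. Counts were few for many transcripts, and 22 of 78 had no count in some library.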
